A study of Mus musculus with 46 samples.

Results

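Vgf and the 6 granin-type genes Chga, Chgb, Scg2, Scg3, Scg5 and Pcsk1n encode acidic proteins that are stored in, and released from, the large dense-core vesicles of neurons and endocrine cells. They were taken by gene symbol from a count table of 31854 genes and make up 7 of them. The ATAC-seq regions centred within 50 kb of a start site of these genes were added, which gave 77 of 123721 regions in the table of fed, fasted and leptin-treated mice and 44 of 67472 regions in the table of sorted nuclei. The genes were chosen by their measured response to fasting in AgRP neurons, which was already known from the RNA counts. Their values in that contrast, and in the contrast of the fasting response between AgRP and POMC neurons, are therefore given as a description, without p-values, and nothing is read from counts of calls there.

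Ribosome-bound RNA was measured by TRAP-seq and open chromatin by ATAC-seq in hunger-related neurons of the mouse arcuate nucleus (ARC), in a series of 46 samples. The labels give male mice for all samples. The mice of the TRAP and ATAC libraries carried the NuTRAP allele, a Cre-dependent cassette that tags the ribosomal protein L10a with GFP and the nuclear envelope with mCherry. The methods give a C57BL/6J background for the mice of all studies and an age of 6 to 11 weeks for the AgRP line. An age for the POMC line and for the CUT&RUN mice is not given in the sources used here. The IRF3 CUT&RUN library came from fed, untreated mice of the IRF3-2D overexpression model. AgRP-IRES-Cre drove the NuTRAP allele in AgRP neurons, and POMC-IRES-Cre drove the NuTRAP allele in POMC neurons. The Cre line and the cell type therefore cannot be told apart. Fed mice ate ad libitum, fasted mice went without food overnight for 18 to 20 hours, and leptin mice were fasted in the same way. Fed and fasted mice received PBS and leptin mice 5 mg/kg leptin by intraperitoneal injection 3 hours before tissue was taken. Each TRAP library came from 4 pooled ARCs, with 3 fed, 4 fasted and 4 leptin libraries of AgRP neurons and 2 libraries of POMC neurons in each state. Each ATAC library came from sorted nuclei of 4 pooled mice, with 2 libraries per state of AgRP nuclei and, from fed untreated mice, 2 of AgRP-positive and 2 of AgRP-negative nuclei taken from the same pools. In the pooled libraries, a change in the number of cells captured and a change in RNA per cell cannot be told apart.

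Granins aggregate in the trans-Golgi network at low pH and high calcium, where they help dense-core vesicles to form. VGF is a neurotrophin-inducible precursor that prohormone convertases cut into peptides such as TLQP-21, and mice without it are lean. Scg2 is the precursor of secretoneurin, Chga of vasostatin and catestatin, and Chgb a close relative of Chga. Scg3 binds Chga and tethers it to vesicle membranes. Scg5 (7B2) is the chaperone of prohormone convertase 2, and Pcsk1n (proSAAS) inhibits prohormone convertase 1. AgRP neurons, which promote feeding, and POMC neurons, which restrain it, both package neuropeptides in such vesicles.

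To 6 significant digits, the libraries held 25581000 to 54511100 counts assigned to genes in TRAP-seq, 8263230 to 17191000 counts in regions in the ATAC table by state and 8685500 to 11177200 in that of the sorted nuclei. The lowest ATAC total by state was that of fed replicate 1, and the other libraries of that table held 14325000 counts or more. The part of depth in the fed values was not tested. Marker genes followed the labels. The 6 AgRP-neuron markers summed to 1653 to 6442 counts-per-million units (CPM) in the AgRP libraries and to 110 to 201 CPM in the POMC libraries, and the 5 POMC-neuron markers to 164 to 231 against 1688 to 3106 CPM, although Nr5a2 of that second list was higher in AgRP libraries of fasted mice. The 7 astrocyte markers summed to 1169 to 1548 CPM in replicate 4 of every AgRP state and replicate 2 of every POMC state, and to 663 to 1088 CPM in the other 11 libraries. The 7 oligodendrocyte markers separated the same libraries, at 729 to 969 CPM in those 6 and 427 to 699 CPM in the other 11. Results that change when those 6 libraries are left out are given both ways. The part of glial RNA in the results was not tested.

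Vgf lies on the plus strand at chr5:137026392-137033351 and Scg2 on the minus strand at chr1:79434669-79440120 of mm10, and the sequences of both loci that the results turn on are given first. The promoters of Scg2 and Chgb, running from 250 bases before to 50 bases after the RefSeq start on GRCm38, are shown because both hold the full cAMP response element TGACGTCA, printed in capitals, at 68 and 72 bases before the start. That element was found in 1.79% of 32817 promoters of the same length when both strands were searched. The Scg2 promoter lies at chr1:79439977-79440276 on the minus strand and that of Chgb at chr2:132781392-132781691 on the plus strand.
Scg2 promoter: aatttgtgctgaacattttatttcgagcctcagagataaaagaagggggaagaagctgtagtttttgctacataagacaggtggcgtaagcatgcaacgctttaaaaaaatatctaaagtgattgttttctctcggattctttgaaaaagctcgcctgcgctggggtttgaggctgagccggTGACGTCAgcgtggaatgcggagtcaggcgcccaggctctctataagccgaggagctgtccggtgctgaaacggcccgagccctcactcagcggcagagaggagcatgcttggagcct
Chgb promoter: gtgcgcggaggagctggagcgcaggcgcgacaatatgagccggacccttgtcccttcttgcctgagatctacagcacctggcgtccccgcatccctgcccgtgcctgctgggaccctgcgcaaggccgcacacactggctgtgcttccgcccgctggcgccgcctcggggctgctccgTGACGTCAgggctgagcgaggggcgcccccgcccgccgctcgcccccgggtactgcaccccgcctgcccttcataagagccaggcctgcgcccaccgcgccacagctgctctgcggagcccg
The shorter core TGACG, which also counts each full element, was found in 20.8% of promoters. It occurred once in the promoters of Chga and Scg3, in 3 places in that of Scg5 and nowhere in that of Pcsk1n. RefSeq promoters matched 6 of the 7 members, and Vgf had no entry. The 300 bases around the centre of the open region at the Vgf start (chr5:137029993-137030292) hold 1 full element TGACGTCA, which 0.754% of all tested regions cut in the same way do.

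Of the 72 open regions tested near the members, 4 are shown because they carry the differences described below. They are the regions 13.8, 10.3 and 1.1 kb before a Vgf start and the region 15.3 kb past the Scg2 start, each cut to at most 300 bases around its centre and read on the plus strand of mm10. Capitals mark AP-1 sites (TGANTCA) and CRE core sites (TGACG) on either strand. They lie at chr5:137012426-137012725, chr5:137016027-137016242, chr5:137029025-137029324 and chr1:79424635-79424934.
Vgf, 13.8 kb before the start: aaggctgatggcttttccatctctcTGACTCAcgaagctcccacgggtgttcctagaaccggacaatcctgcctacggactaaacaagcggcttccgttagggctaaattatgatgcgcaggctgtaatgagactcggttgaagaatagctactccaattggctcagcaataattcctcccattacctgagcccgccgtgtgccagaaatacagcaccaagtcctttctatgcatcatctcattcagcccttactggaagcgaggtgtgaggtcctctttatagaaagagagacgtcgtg
Vgf, 10.3 kb before the start: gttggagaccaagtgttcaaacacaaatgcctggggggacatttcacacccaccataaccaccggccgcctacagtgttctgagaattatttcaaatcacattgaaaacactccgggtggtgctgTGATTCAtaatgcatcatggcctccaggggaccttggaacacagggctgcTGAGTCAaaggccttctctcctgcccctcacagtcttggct
Vgf, 1.1 kb before the start: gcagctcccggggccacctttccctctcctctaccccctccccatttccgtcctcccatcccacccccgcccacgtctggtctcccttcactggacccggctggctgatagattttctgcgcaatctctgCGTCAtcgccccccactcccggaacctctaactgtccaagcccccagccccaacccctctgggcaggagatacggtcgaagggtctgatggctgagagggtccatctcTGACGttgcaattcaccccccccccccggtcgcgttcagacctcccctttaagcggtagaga
Scg2, 15.3 kb past the start: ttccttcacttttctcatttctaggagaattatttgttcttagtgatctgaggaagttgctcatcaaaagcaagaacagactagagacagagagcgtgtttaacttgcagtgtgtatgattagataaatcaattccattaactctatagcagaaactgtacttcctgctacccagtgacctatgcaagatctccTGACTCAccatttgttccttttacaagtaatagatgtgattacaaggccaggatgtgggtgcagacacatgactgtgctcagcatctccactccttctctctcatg
The first and last of these regions each hold 1 AP-1 site, the second holds 2 and the third holds 2 CRE core sites.

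In AgRP neurons, Vgf and Scg2 RNA stood far higher in fasted than in fed mice, Scg3 stood slightly higher in every fasted library, and the other members overlapped between the states. Vgf measured 365, 444 and 367 CPM in the fed libraries and 1557, 1883, 2325 and 1518 CPM in the fasted libraries. The groups were far apart, with the lowest fasted library well above the highest fed one. The means were 392 ± 45.3 (SD, n = 3) and 1821 ± 374 CPM (n = 4), and the log2 fold change was 2.22 (SE 0.26), a 4.67-fold difference. Within the 3 replicate numbers present in both states, the fasted to fed ratio ran from 4.14 to 5.23.

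Scg2 measured 929, 1449 and 1009 CPM in the fed and 1984, 3143, 3668 and 2179 CPM in the fasted AgRP libraries. All fasted libraries lay above all fed libraries, and replicate 3 was the highest in both states. The log2 fold change was 1.29 (SE 0.33), with ratios of 2.13 to 2.53 within replicate numbers. Scg3 measured 125, 137 and 125 CPM in the fed and 173, 162, 189.6 and 161 CPM in the fasted libraries, a log2 fold change of 0.42 (SE 0.088). These groups did not overlap either, but the difference was under the fold limit of 0.5.

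Chga measured 90.1, 99.8 and 89.3 CPM in the fed and 116, 114, 136 and 83.7 CPM in the fasted AgRP libraries, so fasted replicate 4 fell below the fed range. For Chgb the fed values were 44.7, 42.1 and 42.2 CPM, and the fasted values ran from 29.9 to 53.1 CPM on both sides of them. Scg5 ran from 119 to 146 CPM in the fed and from 115 to 162 CPM in the fasted libraries. Pcsk1n, one of the most abundant members, measured 517, 1170.1 and 1084 CPM in the fed and 538, 931, 1105 and 1051 CPM in the fasted libraries. Replicate 1 was low for Pcsk1n in every AgRP state, including 484 CPM after leptin. The log2 fold changes of these 4 genes lay between -0.017 (Pcsk1n) and 0.28 (Chga).

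By edgeR's quasi-likelihood test with an adjusted p under 0.05 and an absolute log2 fold change above 0.5, the rule used for every count of calls here, 2 of the 7 members, Vgf and Scg2, were higher in fasted AgRP neurons and none was lower. Over all 13401 genes tested, 3.89% were called in either direction and 2.81% were called higher. As the members were chosen with this contrast in view, nothing is read from the count. The call of Scg2 was lost when libraries were scaled by their totals and when the astrocyte-rich AgRP libraries (replicate 4) were left out. It was also lost in 8 of 11 fits that left out a single library. Its log2 fold change stayed at 1.24 with scaling by totals and at 1.29 without the replicate 4 libraries. With replicate number as a block Scg2 was called, with a log2 fold change of 1.18 (SE 0.086). All 7 astrocyte markers had lower values in fasted than in fed AgRP libraries, with none called and a median log2 fold change of -0.22 (663 to 1169 against 893 to 1219 CPM summed). Of 7 oligodendrocyte markers 1 had a higher value and the median log2 fold change was -0.42, and all 4 microglia markers tested had lower values, with a median of -0.66. All 6 AgRP-neuron markers had higher values, with a median of 0.60. None of these markers was called, and their part in the fasting values was not tested.

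**Figure D1:**
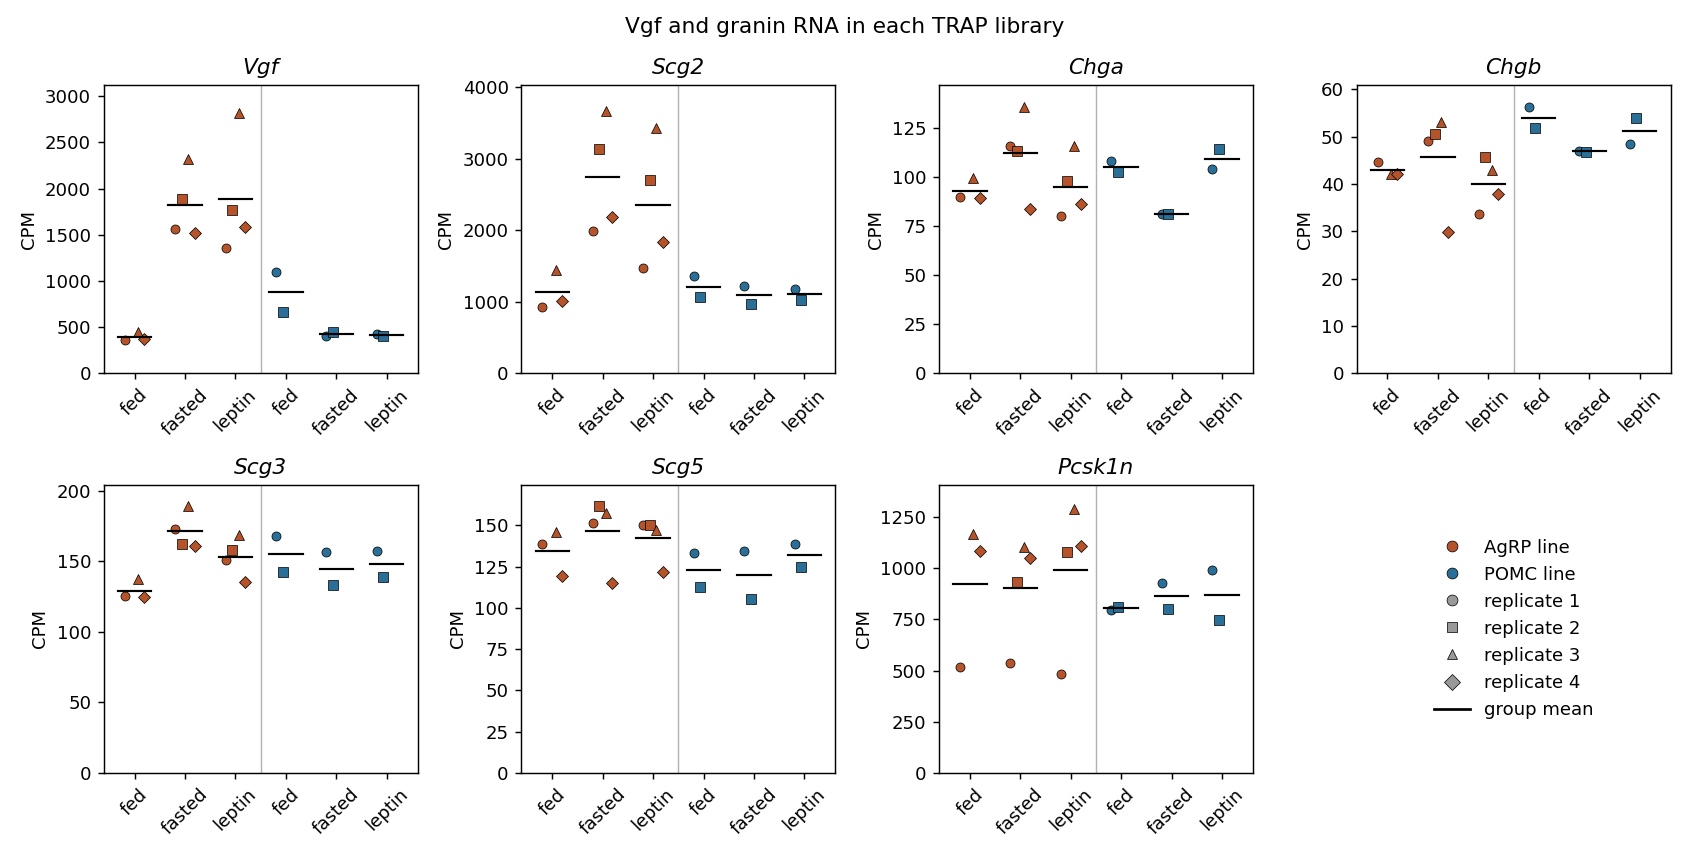
CPM of each member (y axes from 0) in each of the 17 TRAP libraries by Cre line and state (x axes), with marker shapes for replicate numbers and bars at group means. Vgf and Scg2 stand high in the 8 fasted and leptin AgRP libraries, with Vgf at 1359 CPM or more there against at most 444 CPM in the fed AgRP libraries, and replicate 1 of the AgRP line is low for Pcsk1n in all 3 states.

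Levels of different genes were compared per kb of the gene length given in the deposited table. In fed AgRP neurons Scg2 was the most abundant member at 454 CPM per kb, followed by Pcsk1n at 421, Vgf at 151, Scg5 at 109.7, Scg3 at 58.5, Chga at 48.7 and Chgb at 15.7 CPM per kb. In fasted AgRP neurons Scg2 reached 1104 and Vgf 704 CPM per kb, while Pcsk1n was at 413. Among 13435 genes ranked on this scale, Vgf moved from rank 182 in fed to rank 6 in fasted and leptin-treated AgRP neurons. Scg2 held ranks 15, 3 and 4 in the same states, so a pair of granin-type genes stood among the 6 most abundant TRAP transcripts of fasted AgRP neurons.

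After leptin, Vgf and Scg2 stayed in the range of the fasted AgRP libraries or overlapped it, and no member was called. Vgf measured 1359, 1769.8, 2824 and 1586 CPM after leptin, a range that holds all 4 fasted values. The log2 fold change against fasted libraries was 0.05 (SE 0.23, adjusted p = 1.00, edgeR), and within replicate numbers the ratio ran from 0.87 to 1.21. Scg2 measured 1468, 2699, 3438 and 1829.9 CPM. Each of these 4 values was below the fasted library of the same number, with ratios of 0.74 to 0.94, but the groups overlapped and the log2 fold change of -0.22 (SE 0.29) had an edgeR adjusted p of 1.00. Scg3 showed the same order in 4 of 4 numbers (ratios 0.84 to 0.97, log2 fold change -0.16, SE 0.081, edgeR adjusted p = 0.65). With replicate number as a block in edgeR, Scg2 had a log2 fold change of -0.25 (SE 0.075, adjusted p = 0.073). In the same fit Scg3 had -0.16 (SE 0.049, adjusted p = 0.070).

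Chga had a log2 fold change of -0.24 (SE 0.14, edgeR adjusted p = 0.83) after leptin, with a lower value in 3 of 4 numbers. The other 3 members had log2 fold changes from -0.19 (Chgb) to 0.13 (Pcsk1n). None of the 7 members was called in this contrast, with or without replicate number as a block, against 1.80% of all genes. The contrast shares its fasted libraries with the one above, so the 2 sets of values are not independent.

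POMC neurons did not share the high fasted values. Vgf measured 1099 and 659 CPM in fed, 402 and 442 CPM in fasted and 428 and 406 CPM in leptin-treated POMC neurons. Both fed libraries lay above all 4 others, and the 2 fed libraries differed widely from each other. The log2 fold change from fed to fasted was -1.06 (SE 0.26, unadjusted p = 0.0079), but over 13412 genes the edgeR adjusted p was 1.00, with 0.33 by DESeq2 and 0.068 by edgeR with the replicate block. No member was called. No gene at all was called in this contrast by edgeR (0%), against 273 genes at an unadjusted p under 0.05, 3 by DESeq2 and 3 (0.0224%) with the block.

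Scg2 measured 1362 and 1061 CPM in fed, 1221 and 972 CPM in fasted and 1179 and 1023 CPM in leptin-treated POMC neurons, and the states overlapped. Chga stood at 108 and 103 CPM in fed, 81.2 and 81.3 CPM in fasted and 104 and 115 CPM in leptin-treated POMC neurons. The fasted pair was thus the lowest, by -0.37 on the log2 scale against fed (SE 0.11, unadjusted p = 0.019) and by a log2 fold change of 0.42 for leptin against fasted (SE 0.11, unadjusted p = 0.012). The edgeR adjusted p was 1.00 in both. The other 4 members moved by at most 0.20 on the log2 scale in either POMC contrast. In the leptin contrast of POMC neurons edgeR called 0% of genes and no member, against 151 genes at an unadjusted p under 0.05, 10 by DESeq2 and 8 (0.0596%) with the block. Markers of pituitary endocrine cells summed to 32.0 to 49.4 CPM in the leptin POMC libraries and to 12.6 to 17.2 CPM in the fed and fasted ones. Their part in the POMC values was not tested.

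**Figure D2:**
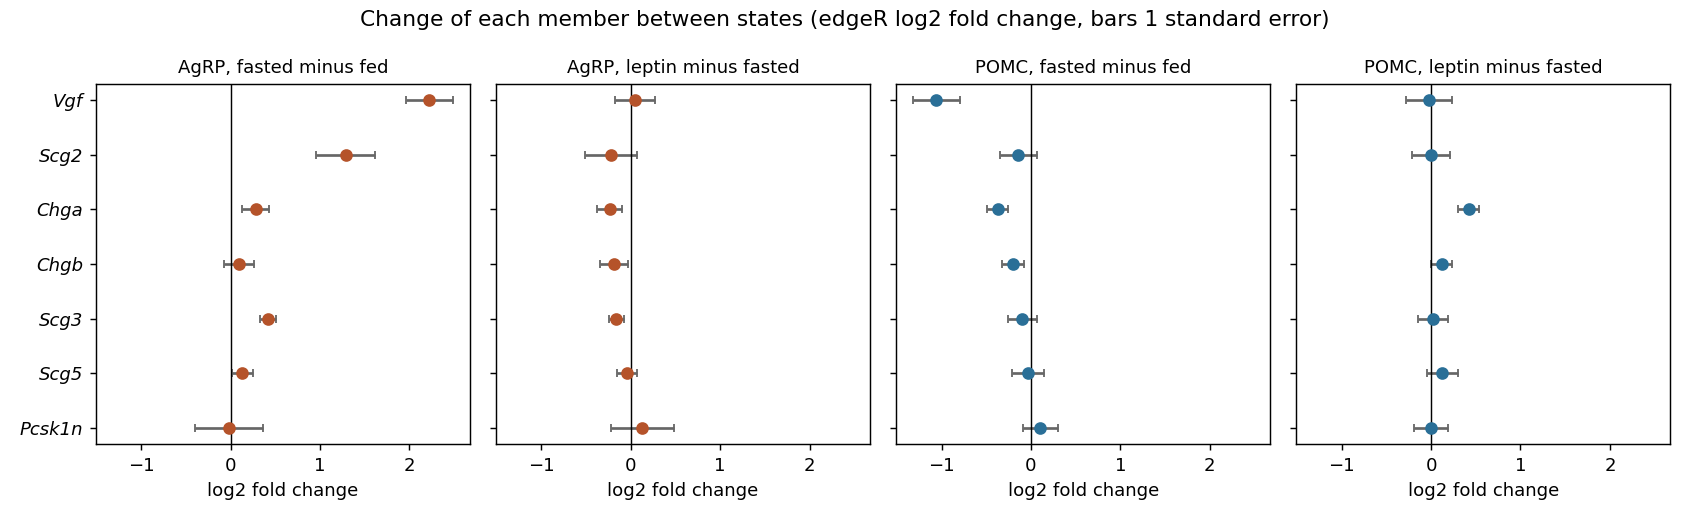
Log2 fold change of each member (x axes, points with bars of 1 standard error from edgeR) in the fasting and leptin contrasts of AgRP and POMC neurons. Vgf lies at 2.22 for fasting in AgRP neurons and at -1.06 in POMC neurons, while the leptin contrasts of both lines lie within 0.42 of 0 for every member.

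The fasting log2 fold change of AgRP neurons minus that of POMC neurons was 3.28 (SE 0.41) for Vgf, 1.42 (SE 0.48) for Scg2, 0.65 for Chga, 0.51 for Scg3, 0.29 for Chgb, 0.16 for Scg5 and -0.13 for Pcsk1n. One member, Vgf, was called, where 0.156% of all genes were. With the replicate block 4 members were called (Vgf, Scg2, Chga and Scg3, with differences of 3.21, 1.31, 0.62 and 0.51), where 6.23% of all genes were. The members were chosen on the fasting response, so nothing is read from these counts. The call of Vgf without the block was lost when POMC fasted replicate 1, POMC fasted replicate 2 or POMC fed replicate 1 was left out. For the leptin response, 0 members were called by edgeR, against 0.0744% of genes. With the block, Chga alone was called, with a difference of -0.67 (edgeR adjusted p = 0.0436), where 0.796% of all genes were called.

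Between the cell types, Vgf was lower in AgRP than in POMC neurons of fed mice and higher in the other states. The log2 difference, AgRP minus POMC, was -1.16 in fed mice (SE 0.28, edgeR adjusted p = 0.0356), 2.11 in fasted mice (SE 0.30, adjusted p = 0.000376) and 2.18 in leptin-treated mice (SE 0.30, adjusted p = 0.000371). Scg2 differed by -0.10 in fed mice (SE 0.34, adjusted p = 0.94), by 1.32 in fasted mice (SE 0.35, adjusted p = 0.0183) and by 1.10 after leptin (SE 0.34, adjusted p = 0.0473). These comparisons were made with edgeR on all 17 libraries. They use the fed and fasted AgRP libraries by which the members were chosen, and fed AgRP libraries were the low side of that choice, so the values and calls in all 3 states are given as a description and are no independent support for the fasting contrast.

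In these comparisons 1 of 7 members was called in fed mice, where 3.15% of all genes were, and 2 of 7 were called in fasted and in leptin-treated mice, where 13.2% and 11.0% of all genes were. The fed call of Vgf was lost without any 1 of AgRP fed replicates 1, 3 and 4, AgRP leptin replicate 2 and POMC fed replicate 1. It was also lost in a fit of fed libraries alone and without the 6 astrocyte-rich libraries. Without POMC fed replicate 1 the log2 difference was -0.75, and without the astrocyte-rich libraries it was -1.45. Scg2 lost its fasted call without either POMC fasted library (1.50 and 1.15). Its leptin call was lost without any 1 of several libraries, among them AgRP leptin replicates 2 and 3. The leptin difference of Scg2 ran from 0.86 to 1.27 as single libraries were left out. Without the 6 astrocyte-rich libraries Scg2 also lost its calls in the fasted (1.24) and leptin (1.09) comparisons. Chga differed by 0.47 in fasted mice with an adjusted p of 0.0704 and was called there (0.58, edgeR adjusted p = 0.0101) only without AgRP fasted replicate 4.

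Ordered by level, Vgf was lowest in fed AgRP, leptin POMC and fasted POMC neurons, whose ranges overlapped. Fed POMC neurons came next, and fasted and leptin AgRP neurons, which overlapped each other, were the highest. For Scg2 the 3 POMC groups and fed AgRP neurons all overlapped, below the leptin and fasted AgRP libraries. Over the 17 libraries the SD of log2 CPM was 1.07 for Vgf, 0.67 for Scg2, 0.43 for Pcsk1n and between 0.17 and 0.24 for the other 4 members.

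Likeness to the Vgf pattern was taken as the root mean square difference of log2 CPM, with 0.5 CPM added and each gene centred on its mean, over all 17 libraries. The 5 closest genes were Fut4 (0.438), Cd68 (0.442), Notch4 (0.475), Sec61b (0.478) and Procr (0.486). Cd68 and Procr were barely detected, at a mean of 0.452 and 0.820 CPM in fed AgRP libraries against 3.91 and 3.66 CPM in fasted ones. Scg2 came 12th among the other genes at 0.524, ahead of Scg3 at 0.930, Scg5 at 0.970, Chga at 0.977, Pcsk1n at 1.04 and Chgb at 1.11. The closest pair among the members was Scg3 with Scg5, at 0.158.

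The rest of the regulated secretory pathway was read from a list of 23 genes for vesicle cargo processing, biogenesis and release, of which 22 passed the filter on low values. The list was chosen with earlier results of these data known. Its values and calls in the fasting contrasts are therefore a description, and nothing is read from the counts. In fasted against fed AgRP neurons 4 of the 22 rose and none fell, where 2.81% of all genes were called higher. Ptprn (IA-2), a vesicle membrane protein, rose by a log2 fold change of 1.07 (SE 0.27). Rab3b, a vesicle GTPase, rose by 0.84 (SE 0.12), and Hid1, which acts in vesicle biogenesis, rose by 0.82 (SE 0.13). Pcsk1, the convertase that proSAAS inhibits, rose by 0.74 (SE 0.12), from 129 ± 6.10 CPM (SD, n = 3) to 214 ± 29.8 CPM (n = 4). These values, like those of the members in this contrast, are given without p-values.

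The values for Pcsk2, the convertase that Scg5 chaperones, and for the processing enzymes Cpe and Pam were 0.39, 0.49 and 0.45 on the log2 scale. None of these was called in fasted against fed AgRP neurons. The median log2 fold change of the list was 0.107, and that of all genes 0.018. Leptin called none of the 22 in AgRP neurons, and neither contrast of POMC neurons did. Between cell types none differed in fed mice, and 4 were higher and 2 lower in AgRP neurons of fasted mice, where 13.2% of all genes were called. Hid1 (0.96), Ctsl (0.78), Rab3b (0.67) and Pam (0.58) were the 4 that were higher, and Doc2b (-0.92) and Sytl4 (-0.61) were lower. The same 6 genes were called in leptin-treated mice, where 11.0% of all genes were. For the difference of the fasting response between AgRP and POMC neurons none of the 22 was called without and 6 with the replicate block, against 0.156% and 6.23% of all genes. In the fit with the block, Ptprn, Hid1, Rab3b, Pcsk1 and Pam were higher and Sytl4 lower.

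Among 20 neuropeptide precursors, the cargo of the same vesicles, 16 were tested. This list too was chosen with earlier results of these data known, so its values are a description and nothing is read from the counts. In fasted against fed AgRP neurons Nts (2.42), Nucb2 (0.80) and Pdyn (0.67) rose and none fell. Over all genes 2.81% were called higher. The median log2 fold change of the list was 0.19. With the replicate block 6 rose, among them Agrp (1.64) and Npy (1.57), and Ghrh fell by 0.77 on the log2 scale, in a fit that called 937 of 13401 genes. Vgf stood at 2.20 in that same fit.

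At the start sites of the members, no difference in open chromatin between fed and fasted AgRP nuclei was called. The promoter region of Vgf (chr5:137029865-137030421, covering the start) measured 26.6 and 32.9 CPM in fed, 31.2 and 29.0 CPM in fasted and 31.7 and 25.5 CPM in leptin-treated AgRP nuclei. The 3 states overlapped, and the log2 fold change from fed to fasted was 0.011 (SE 0.20, edgeR adjusted p = 0.97). The promoter region of Scg2 (chr1:79439803-79440274) measured 17.6 and 17.8 CPM in fed and 19.4 and 14.3 CPM in fasted nuclei, a log2 fold change of -0.073 (SE 0.26, edgeR adjusted p = 0.85). None of the 7 promoter regions was called, and their log2 fold changes lay between -0.41 (Chga) and 0.011 (Vgf).

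Over all regions tested in fasted against fed nuclei, 19.0% opened. Away from the start sites, 5 of the 16 regions within 50 kb of Vgf opened with fasting and none closed. The region 13.8 kb before the start (chr5:137012216-137012935, intergenic) was the most accessible of them, at 22.2 and 41.1 CPM in fed, 60.1 and 51.8 CPM in fasted and 63.3 and 47.0 CPM in leptin-treated nuclei. Fasted and fed libraries did not overlap, although the 2 fed libraries lay far apart, and the log2 fold change was 0.81 (SE 0.22, edgeR adjusted p = 0.0109). The region 10.3 kb before the start (chr5:137016027-137016242), which holds 2 AP-1 sites, was almost closed in fed nuclei at 0.37 and 0.72 CPM and measured 6.50 and 4.42 CPM in fasted nuclei. Its log2 fold change was 3.21 (SE 0.49, edgeR adjusted p = 0.00017).

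A region in an intron of Vgf, 1.1 kb before the nearest of its 3 annotated starts (chr5:137028863-137029486), went from 9.78 and 15.2 CPM to 36.8 and 22.2 CPM, a log2 fold change of 1.22 (SE 0.28, edgeR adjusted p = 0.0032). The 2 remaining regions lay 21.9 and 24.0 kb past the start and were nearer to Ap1s1 than to Vgf. They measured 14.4 and 25.3 CPM in fed against 39.6 and 38.1 CPM in fasted nuclei, and 0.87 and 0.79 against 7.08 and 4.73 CPM, with log2 fold changes of 0.95 and 2.83 (edgeR adjusted p = 0.0059 and 0.00016). In all 5 regions both leptin libraries lay above both fed libraries, as in the region 10.3 kb before the start, where they stood at 6.25 and 3.62 CPM.

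Scg2 had 14 tested regions, of which 5 opened and 1 closed, where 19.0% of all regions tested opened. The region 15.3 kb past its start (chr1:79424354-79425216, intergenic) rose from 18.7 and 20.1 CPM in fed to 50.1 and 37.8 CPM in fasted nuclei, with 42.2 and 29.9 CPM after leptin (log2 fold change fed to fasted 1.18, SE 0.21, edgeR adjusted p = 0.00055). Regions 47.4, 27.5, 8.8 and 7.6 kb past the start opened by 2.48, 1.34, 1.43 and 1.14 on the log2 scale. The region 34.3 kb before the start (chr1:79474112-79474797) fell from 12.1 and 8.16 CPM to 0.38 and 1.37 CPM (log2 fold change -3.51, SE 0.47, edgeR adjusted p = 6.5e-05). It stayed low after leptin at 0.42 and 0.56 CPM.

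**Figure D3:**
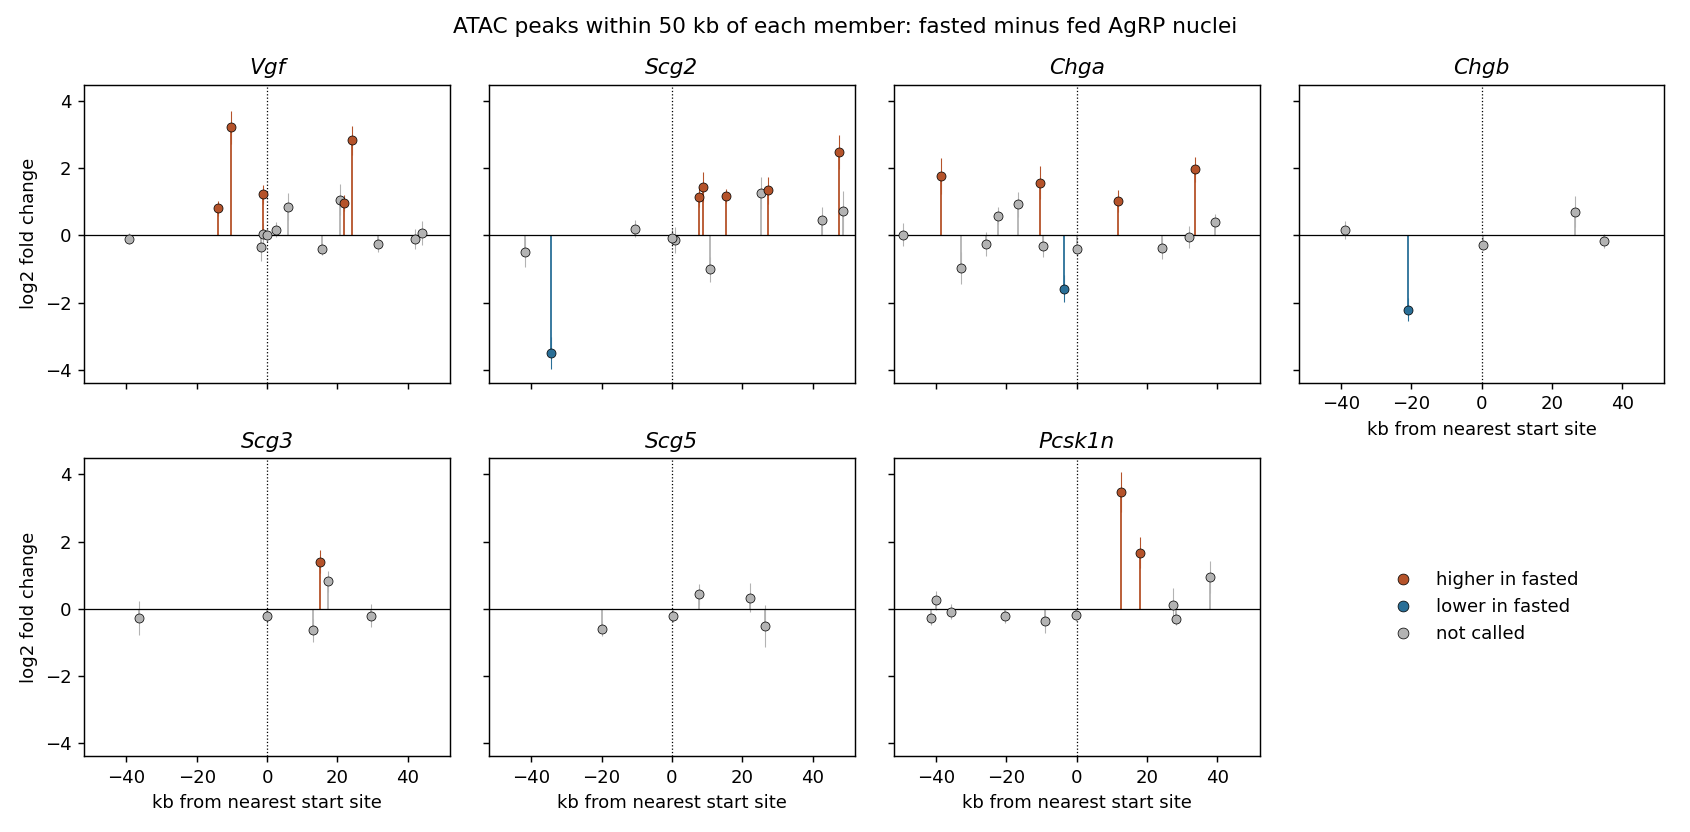
Log2 fold change of each tested ATAC region, fasted minus fed AgRP nuclei (y axes, bars of 1 standard error), by distance in kb from the nearest start site of each member (x axes, positive in the direction of transcription). The regions at the start sites lie near 0, and regions away from them account for all 17 that were higher (orange) and 3 that were lower (blue).

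Near Chga, 4 of 15 tested regions opened, by 1.03 to 1.97 on the log2 scale, and 1 closed, 3.5 kb before the start, from 7.92 and 4.40 CPM to 2.04 and 1.99 CPM (log2 fold change -1.59, SE 0.41, edgeR adjusted p = 0.0076). The region with the value of 1.97, 33.6 kb past the start, lay in an exon of Itpk1. Near Chgb, 1 of 5 regions closed, 20.8 kb before the start, from 17.96 and 20.21 CPM to 3.38 and 4.86 CPM (log2 fold change -2.21, SE 0.35, edgeR adjusted p = 0.00019). The 2 of 11 regions near Pcsk1n that opened both lay in Hdac6. One of 6 near Scg3, in an intron of the gene itself, opened by 1.41, and none of 5 near Scg5 did. The closing 3.5 kb before Chga was not called without fasted replicate 2 or fed replicate 1, and the opening near Scg3 was not called without fasted replicate 2.

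In all, 17 of the 72 tested regions were higher and 3 lower in fasted nuclei, or 27.8% called against 27.3% of all 102237 regions tested, and 23.6% higher against 19.0%. The share near the members was thus about that of the whole table. Of the 20 regions called, 16 lay nearer to a start of the member than to that of any other gene. The count ranged from 13 to 21 as single libraries were left out, and was 13 without fasted replicate 1 and without fed replicate 1. Leptin against fasted nuclei called 0 of the 72 regions by edgeR, where 1.74% of all regions were called. The region just inside the 50 kb limit, 49.4 kb before Chga, and the one just outside it, 50.7 kb past Scg2, were not called in fasted nuclei.

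The AP-1 sequence TGANTCA was found in 10 of the 17 regions that opened near the members, in 18 of the 52 not called and in 0 of the 3 that closed, with regions cut to 300 bases and both strands searched. Over the whole table it was found in 71.4% of the regions higher in fasted nuclei, 5.25% of those lower and 31.8% of all tested. The match in letters is a description of the sequence and does not show that a factor was bound.

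Sorted nuclei of fed untreated mice were used to compare AgRP neurons with other ARC cells. Of the regions that opened with fasting, 3 overlapped a sorted region that was higher in AgRP-positive nuclei and 1 overlapped one not called. The others had no overlapping sorted region, so they were not tested there. Among them were the regions 10.3 and 1.1 kb before and 24.0 kb past a Vgf start. Of 44 regions within 50 kb of the members, 13 were more and 3 less accessible in AgRP-positive than in AgRP-negative nuclei, which is 36.4% called against 39.4% of 66560 regions tested, and 29.5% higher against 24.1%. The region 13.9 kb before Vgf (chr5:137012217-137012853) measured 3.57 and 2.37 CPM in AgRP-negative and 42.5 and 35.2 CPM in AgRP-positive nuclei. This was the largest difference near any member, 3.71 on the log2 scale (SE 0.22, edgeR adjusted p = 5.6e-56). The region 21.8 kb past the Vgf start was also higher in AgRP-positive nuclei, by 2.25 on the log2 scale.

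In the sorted table the region just inside the 50 kb limit, 49.7 kb past Scg3, was not called and the one just outside, 50.8 kb past Scg2, was higher. The region 15.2 kb past Scg2 measured 7.51 and 4.62 CPM in AgRP-negative and 14.9 and 15.7 CPM in AgRP-positive nuclei (log2 fold change 1.34, SE 0.26, edgeR adjusted p = 2.5e-06). The region 34.3 kb before Scg2, the one that closed with fasting, was higher in AgRP-positive nuclei, with 0.74 and 0.24 against 3.82 and 5.91 CPM (log2 fold change 3.30, SE 0.58). Chga had 4 regions higher and 2 lower, and Scg3, Scg5 and Chgb had 1 higher each, by 1.80, 1.54 and 1.16 on the log2 scale. Pcsk1n had 1 lower, 20.5 kb before its start at Timm17b and Pqbp1, by -0.55. That call was lost when libraries were scaled by their totals (-0.39), and the call near Chgb was lost without AgRP-negative replicate 2. No promoter region of the 7 members was called. That of Vgf came closest, at 13.05 and 16.7 against 20.5 and 20.9 CPM, a log2 difference of 0.48 (SE 0.20, edgeR adjusted p = 0.0364), and was called when libraries were scaled by their totals (0.64) or AgRP-negative replicate 2 was left out (0.66). That of Pcsk1n, at 0.45 (SE 0.16), was called with the same scaling (0.62) and without AgRP-negative or AgRP-positive replicate 1.

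**Figure D4:**
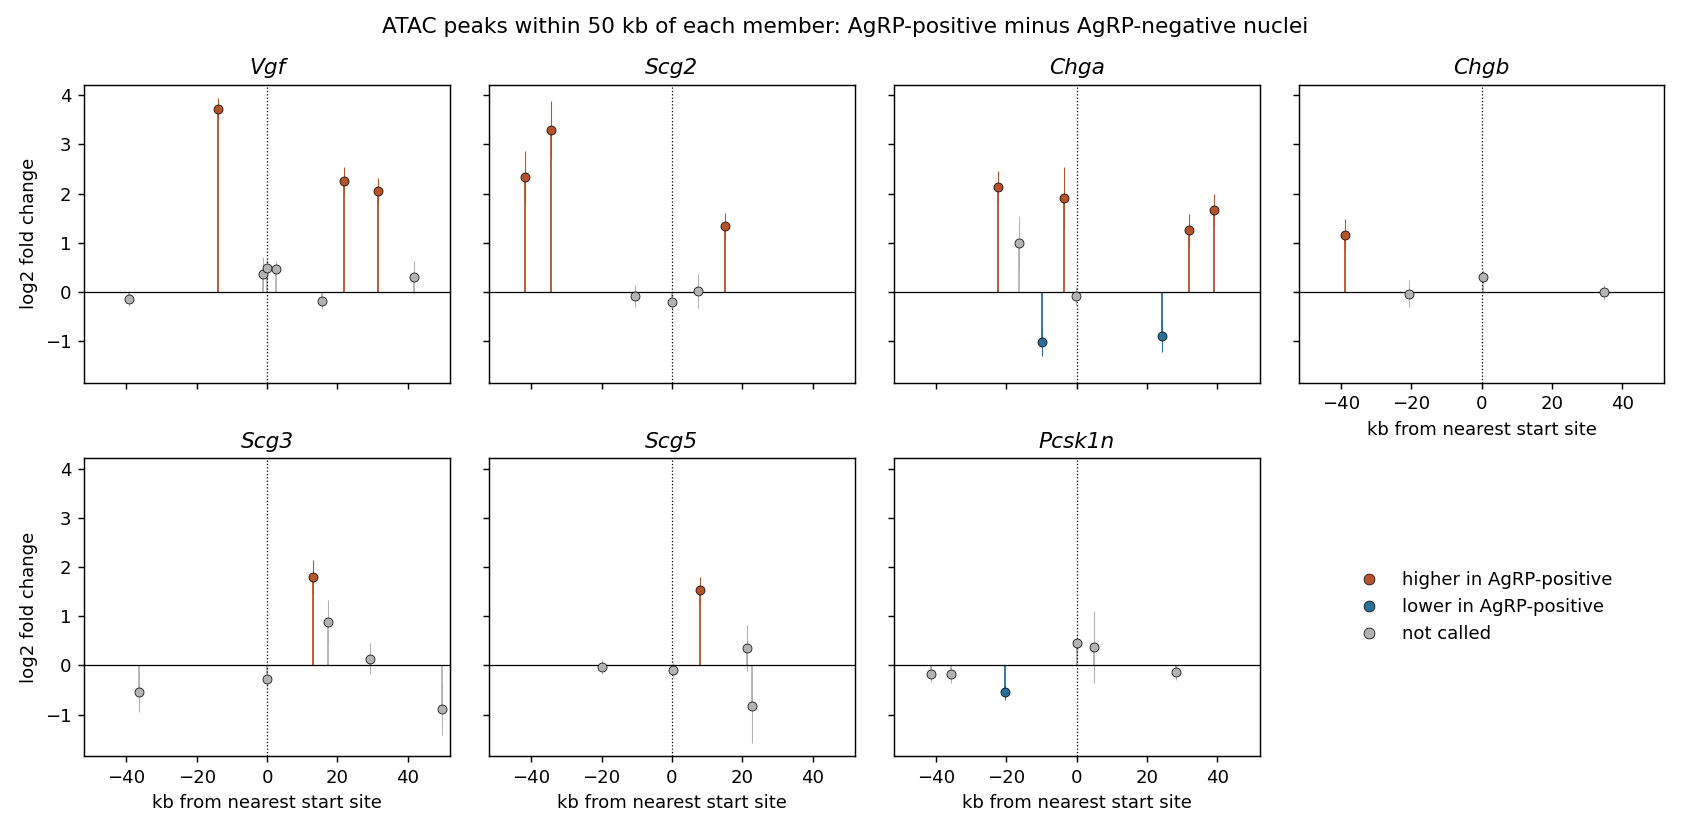
Log2 fold change of each tested ATAC region, AgRP-positive minus AgRP-negative nuclei of fed mice (y axes, bars of 1 standard error), by distance in kb from the nearest start site of each member (x axes, positive in the direction of transcription). The region 13.9 kb before Vgf stands out at 3.71, and the promoter regions of the 7 members are not called.

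Of the 13 regions higher in AgRP-positive nuclei, 3 opened with fasting (13.8 kb before Vgf, 21.9 kb past Vgf and 15.3 kb past Scg2), 2 closed (3.5 kb before Chga and 34.3 kb before Scg2) and 8 were not called. Of the 3 regions lower in AgRP-positive nuclei, none was called with fasting. Both tables were made separately, so their CPM values are set side by side and not compared.

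**Figure D5:**
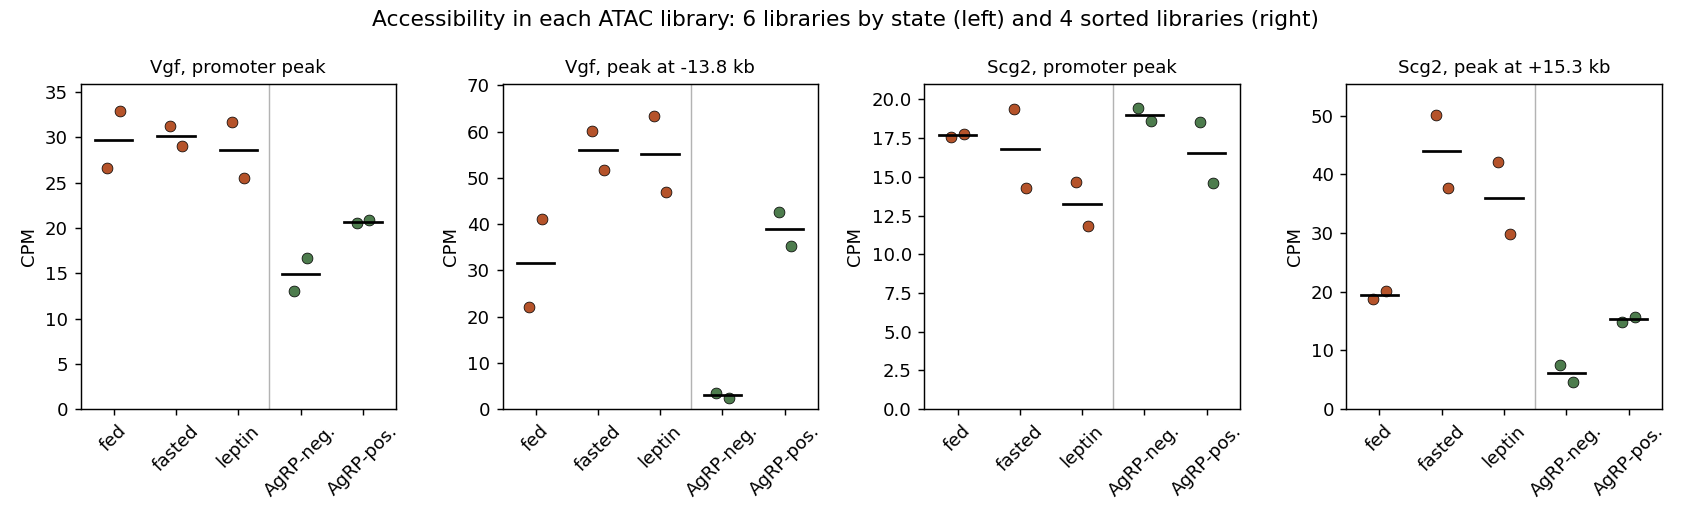
CPM (y axes from 0) in each ATAC library of the promoter regions and of the distal regions 13.8 kb before Vgf and 15.3 kb past Scg2, with 2 libraries per state of AgRP nuclei on the left of each panel, 2 per sorted population on the right, and bars at means. The promoter regions differ little between fed and fasted nuclei, while the Vgf region reaches 51.8 CPM or more in fasted nuclei and at most 3.57 CPM in AgRP-negative nuclei.

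CUT&RUN, which maps where a protein sits on chromatin, was used for the insulator protein CTCF in AgRP nuclei and for the transcription factor IRF3 in AgRP nuclei of mice that overexpress the active form IRF3-2D, with 1 library each and so no replicate check. CTCF peaks with a -log10 q above 2 lay within 50 kb of every member. There were 4 near Vgf, 4 near Scg2, of which a pair shared the same interval and differed only in summit, and 1 to 3 near the others. The only one on a region that opened with fasting was 15.3 kb past Scg2, with a fold enrichment of 4.83. CTCF peaks also had their centres within 1 kb of a start of Scg2 (7.66), Pcsk1n (6.90), Chga (6.32) and Chgb (6.14). IRF3 peaks had their centres within 1 kb of a start of Chga, Vgf, Scg5, Scg2 and Chgb, with maximum signals of 35, 23, 23, 15 and 6. In the same order, these lay at percentiles 96.9, 82.0, 82.0, 42.9 and 3.78 of all 30387 IRF3 peaks. The share of all genes with a CTCF or IRF3 peak at such distances was not counted, so nothing is read from these counts. No IRF3 peak overlapped a region called in fasted nuclei, and none lay within 50 kb of Scg3.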

How the data were processed

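TRAP-seq and ATAC-seq of pooled male NuTRAP mice were read from the deposited tables. The authors aligned RNA reads with HISAT2 to GRCm38 and counted them per gene with featureCounts, so the RNA values are raw counts, and the library kit does not keep strand. For ATAC-seq the authors aligned reads with Bowtie2, called regions with MACS2 and counted reads per region with bedtools, which gave deposited counts on mm10 whose lowest value is 1 in every library. The deposited CTCF file gives a fold enrichment and a -log10 q per peak, as the authors' MACS2 wrote them, and the deposited IRF3 file gives the maximum signal per SEACR peak. Upstream versions are not given in the sources used here. Other files and samples of the series were not used here, among them CTCF in cerebellum and tables of the authors' CPM.

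Counts were tested with edgeR 4.0.16 in R 4.3.3 (quasi-likelihood test, TMM scaling, mean CPM above 1, Benjamini-Hochberg adjustment over all genes or regions). A call needs an adjusted p under 0.05 and an absolute log2 fold change above 0.5. AgRP, POMC, state ATAC and sorted ATAC libraries were fitted separately, and comparisons between cell types used all 17 TRAP libraries. A standard error is the absolute log2 fold change over the square root of F. CPM use TMM-scaled totals. The fit was tested on simulated data. Start sites came from GENCODE M21 and promoter sequences from RefSeq on GRCm38.p6. A promoter region has its centre within 1 kb of a start.

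Replicate numbers were taken to pair the TRAP libraries. Deviations from group means correlated at 0.587 to 0.853 between AgRP libraries of the same number (10 library pairs). AgRP libraries of different numbers correlated at -0.691 to 0.695 (30 library pairs), so the ranges overlapped. Between POMC libraries the values were 0.779 to 0.810 for the same number and -0.810 to -0.779 for different numbers (6 library pairs each). With so few POMC libraries per state, these values mirror each other and cannot test the pairing. AgRP-positive and AgRP-negative nuclei were sorted from the same pools, so their numbers were also taken to pair them (correlation 0.113). The members and gene lists were chosen with earlier results of these data known. Genes named are the members, the 5 genes most like Vgf over the 17 libraries, genes of the lists that passed the test, and marker genes. Alternatives were DESeq2 1.42.0, scaling by library totals, no filter, a replicate block, leaving out each library, a 200 kb window and, chosen after seeing the data, leaving out the 6 astrocyte-rich libraries. Samples are pools, so p-values measure the spread between pools. One item is not reported here.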

Additional observations from a re-analysis of the deposited data

Results flagged for a closer look

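The values for Vgf, Scg2 and Scg3 given here stood out because every numbered pair of AgRP libraries moved one way and every pair of POMC libraries the other. For fasting, the log2 difference between the AgRP and POMC responses was 3.28 for Vgf, 1.42 for Scg2 and 0.51 for Scg3. In AgRP neurons the fasted library was higher in 3 of 3 pairs for each gene, and in POMC neurons it was lower in 2 of 2. For Scg3 both of those POMC ratios were only 0.93. How many of all genes move in this way was not counted. For leptin, the difference for Scg3 was -0.19, with lower values in 4 of 4 AgRP pairs and higher values in 2 of 2 POMC pairs, by ratios of only 1.00 and 1.05. The opposite directions were not tested, and the fasting differences are given as a description, without p-values, since the members were chosen on the AgRP response. The leptin difference of Scg3 was not called.

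Scg5 in leptin AgRP libraries had one library far from the rest. Replicate 4 measured 121.6 CPM and the nearest other library 147.2 CPM, so the gap was 0.905 of the range of the 4 libraries. Chance alone takes about 1 of 20 groups past the limit used. Replicate 4 was also among the libraries with more astrocyte RNA, and the part of that RNA in the value was not tested.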

How the results depend on the processing

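No called value changed sign in any setting tried. Values that were not called and lay near 0 did, as for Pcsk1n in fasted against fed AgRP neurons (-0.31 to 0.19 as single libraries were left out) and Vgf in leptin against fasted ones (-0.21 to 0.19). The number of members called changed as follows. With scaling by library totals, 1 rather than 2 members were called for fasting in AgRP neurons, 0 rather than 1 between cell types in fed mice and 1 rather than 2 in leptin-treated mice. Without the 6 astrocyte-rich libraries the counts were 0, 1 and 1 between cell types in fed, fasted and leptin-treated mice. For fasting in AgRP neurons, a fit without the astrocyte-rich AgRP libraries called 1 member. A fit of fed libraries alone gave 0 between cell types. With the replicate block, 4 rather than 1 were called for the difference of the fasting responses and 1 rather than 0 for that of the leptin responses, and the block changed no other call of a member. Within 200 kb rather than 50 kb, 61 regions rather than 20 were called for fasting and 4 rather than 0 for leptin. Between sorted nuclei 49 rather than 16 were called. These were 28.0% and 1.83% of the 218 tested by state and 34.5% of the 142 tested in sorted nuclei. Over all regions, 27.3%, 1.74% and 39.4% were called in the same contrasts.

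As single libraries were left out, the members called ran from 1 to 2 for fasting and 0 to 0 for leptin in AgRP neurons, 0 to 0 in both POMC contrasts, 0 to 1, 1 to 3 and 1 to 2 between cell types in fed, fasted and leptin-treated mice, and 0 to 1 and 0 to 0 for the differences of the fasting and leptin responses. Regions called ran from 13 to 21 for fasting, 0 to 2 for leptin and 14 to 16 between sorted nuclei.

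Counts over all genes moved more. Fasting in AgRP neurons called 521 genes, 237 with scaling by totals and 937 with the block, and leptin called 241, 143 and 382. Between cell types, 1769 and 1478 genes in fasted and leptin-treated mice became 1175 and 928 with scaling by totals. The difference of the fasting responses called 21 genes, against 5 with scaling by totals, 165 by DESeq2, 837 with the block and 37 without the astrocyte-rich libraries, and that of the leptin responses called 10, against 1, 39, 107 and 3, and 5 with no filter. Scaling by totals moved the median of all sorted regions by 0.163.

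ATAC libraries by state shared only a number, and same-numbered libraries correlated at -0.0086 to 0.193. For the sorted nuclei, which are paired, 16 regions near the members were called with and without the block. With the block, leptin called 3366 regions rather than 1781 and 2 rather than 0 near the members, both near Chgb. No paired analysis was possible between cell types because their libraries came from different mice of different Cre lines. The 2 libraries per group in ATAC-seq and in POMC TRAP-seq limit the precision.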
